A study of Homo sapiens with 6 samples.

Results

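Amino acid transporters of the plasma membrane supply dividing cells with the building blocks of protein and nucleotide synthesis. The 9 described here are SLC7A5, SLC3A2, SLC1A5, SLC38A1, SLC38A2, SLC7A1, SLC7A6, SLC1A4 and SLC6A9, taken by gene name, and each had 1 of the 58938 rows of the table. They were measured in HCT116, an established human colorectal cancer cell line grown in serum-containing IMDM, by RNA sequencing of 3 vector libraries (genotype labelled wild type) and 3 libraries overexpressing MST3 from a plasmid. MST3 is the product of STK24 and belongs to the GCKIII kinases. Plasmids were delivered by lipofection at 60% density, the medium was replaced after 6 hours and RNA was collected after 30 hours, per the labels' protocols. All cells are from a single line and were transfected transiently, and no source used here gives the fraction of cells that took up plasmid. Nothing in the labels says that libraries 1 to 3 came from separate cultures, and p-values then measure no more than the spread between these libraries, which may be technical. Values are FPKM, fragments per kilobase of gene with each library scaled by the authors, so that levels of genes of different length can be set side by side.

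The transporters fall into several systems. SLC7A5 (LAT1) is a light chain that exchanges large neutral amino acids such as leucine for intracellular glutamine. It reaches the membrane together with the heavy chain SLC3A2 (4F2hc, CD98), to which a disulfide bond joins it. SLC7A6 (y+LAT2) is another light chain of SLC3A2, and SLC7A1 (CAT1) carries arginine, lysine and ornithine without a heavy chain. SLC1A5 (ASCT2) and SLC1A4 (ASCT1) are sodium-dependent exchangers of small neutral amino acids, of which SLC1A5 accepts glutamine. SLC38A1 (SNAT1) and SLC38A2 (SNAT2) load glutamine, alanine and other small neutral amino acids with sodium, and SLC6A9 (GLYT1) takes up glycine. SLC7A5, SLC3A2 and SLC38A2 are textbook targets of the transcription factor ATF4, which is translated when amino acids are scarce, and SLC7A5 and SLC1A5 are also known as targets of MYC. The intake of leucine and glutamine is sensed by the kinase complex mTORC1.

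The overexpression itself was present, with STK24 at 17.1 to 17.4 FPKM with vector against 63.7 to 76.0 FPKM with MST3 (log2 difference 1.97, adjusted p = 0.000998 by limma). A vector library held 17296201 to 17708029 recovered reads and an MST3 library 15289213 to 17209736. Colon epithelial markers were present, with KRT19 at 861 to 1190.4 FPKM, EPCAM at 78.7 to 93.9 FPKM and CDX2 at 2.66 to 4.29 FPKM, although VIL1 lay at or below 0.0331 FPKM in every library. The leukocyte and endothelial markers summed to at most 0.369 and 0.271 FPKM per library, and of the fibroblast markers only COL1A1 exceeded 0.1 FPKM, at 3.72 to 4.97 FPKM. MST3 replicates 1 and 3 stood apart from the other libraries. Replicate 1 had reads on 27442 genes against 25099 to 25501 in the other 5, and its values fell by 0.05 on the log2 scale per doubling of gene length relative to the mean of all libraries, while the other 5 changed by 0.00 to 0.02. Replicate 3 had higher values for GC-rich genes and lower values for AT-rich genes, as described below with the transporters it touches.

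No transporter passed the test between MST3 and vector libraries. Of the 9, 8 exceeded a mean of 1 FPKM and were tested, 4 of these were higher and 4 lower, and 0 had an adjusted p under 0.05 by limma or by limma voom on the recovered reads (0 also had an unadjusted p under 0.05 by limma). Over all 13036 tested genes 0.00767% passed as higher (STK24 alone) and 0% as lower, and 5.38% had an unadjusted p under 0.05. The vector and MST3 values overlapped for all 9 transporters, whereas the groups did not overlap for 11.9% of all tested genes. The median log2 difference of the 8 tested transporters was 0.01, beside -0.01 for all tested genes, and it moved to -0.05 when MST3 replicate 3 was left out and to 0.07 when MST3 replicate 1 was. The mean levels, by contrast, spanned a wide range, from 179.6 FPKM for SLC38A2 to 0.656 FPKM for SLC6A9.

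**Figure D1:**
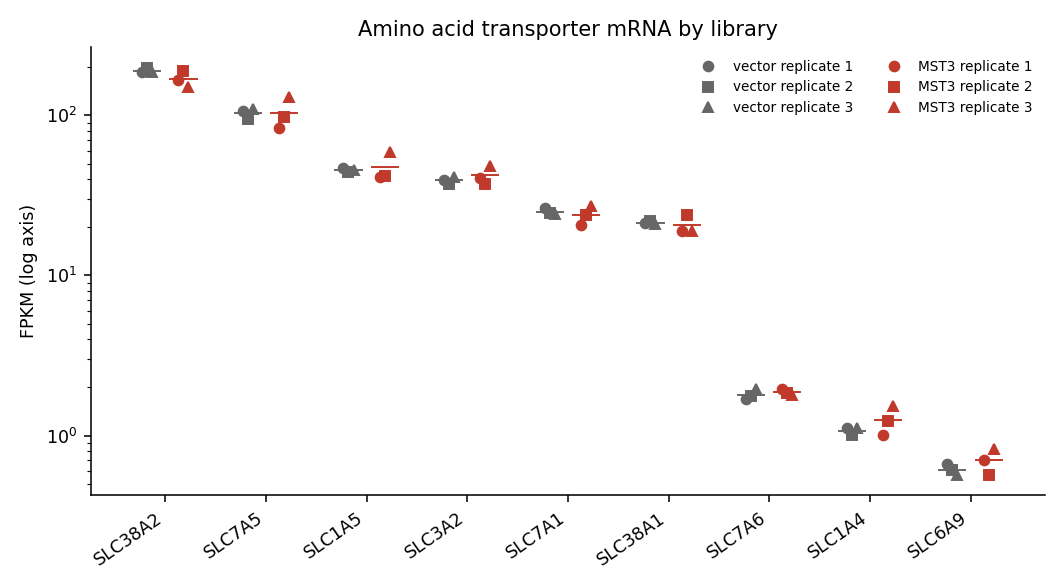
FPKM of the 9 transporters on a log axis, with vector libraries in grey, MST3 libraries in red, 1 symbol per replicate number and a bar at each group mean (n = 3). SLC38A2 and SLC7A5 lie highest in every library, 6 genes lie above 18 FPKM and 3 lie below 2 FPKM, and the groups overlap for each gene.

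SLC38A2 was the most abundant of the transporters. Its FPKM was 186, 198 and 185 in vector replicates 1 to 3 and 167, 190.4 and 151 in MST3 replicates 1 to 3. The second MST3 library lay among the vector libraries and the other two below all of them. The group means were 189.7 ± 7.37 and 169.5 ± 19.8 FPKM (SD, n = 3 each), a log2 difference of -0.17 (SE 0.11, 95% interval -0.42 to 0.09, adjusted p = 0.719 by limma). On the log2(FPKM + 1) scale this was the largest difference among the 8 tested transporters, and its interval corresponds to a ratio between 0.746 and 1.06. That scale shrinks the differences of genes near 1 FPKM. With 0.1 added in place of 1, SLC1A4 had the larger difference, 0.19 against -0.17 for SLC38A2. The value of SLC38A2 was -0.25 without MST3 replicate 2 (unadjusted p = 0.0382, adjusted p = 0.239 by limma). The share of all genes with an unadjusted p under 0.05 in that fit was not counted. The value of SLC38A2 was -0.09 without MST3 replicate 3 and -0.07 when the length and GC trends of the libraries were removed.

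SLC38A1, the sister gene of SLC38A2, had 21.2, 22 and 20.8 FPKM in vector and 18.8, 24 and 19 FPKM in MST3 libraries. The same pair of MST3 libraries, replicates 1 and 3, lay below all vector libraries, and replicate 2 lay above them. The log2 difference was -0.06 (95% interval -0.31 to 0.20, adjusted p = 0.881 by limma) and turned to 0.06 when length and GC trends were removed. Leaving out MST3 replicate 2 gave -0.17, and leaving out MST3 replicate 1 gave 0.0017. Both genes are on the minus strand of chromosome 12 (GRCh38), SLC38A1 at 46183063 to 46270017 and SLC38A2 at 46358189 to 46372867, with 88.2 kb and no other entry of the table between them. SLC38A2 had 7.94 to 9.02 times the FPKM of SLC38A1 in the 6 libraries.

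SLC7A5 and its heavy chain SLC3A2 had equal or nearly equal means in the groups. SLC7A5 had 106, 95.5 and 110.0 FPKM in vector and 83.7, 97.6 and 130.2 FPKM in MST3 libraries. The lowest and the highest of the 6 values were both MST3 libraries, replicates 1 and 3, so the means of 104 ± 7.48 and 104 ± 23.8 FPKM (SD, n = 3) differed far less than the replicates did. The log2 difference was -0.02 (SE 0.16, 95% interval -0.40 to 0.36, adjusted p = 0.975 by limma), and it depended on single libraries, at 0.12 without MST3 replicate 1 and -0.19 without MST3 replicate 3. The interval spans ratios from 0.756 to 1.29, so a change within that span is not excluded. The span is not a limit of detection.

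SLC3A2 had 39.4, 37.5 and 41.1 FPKM in vector and 40.6, 37.5 and 48.2 FPKM in MST3 libraries. MST3 replicate 3 was above all others and MST3 replicate 1 was not low, unlike for SLC7A5. The log2 difference was 0.09 (SE 0.11, 95% interval -0.17 to 0.35, adjusted p = 0.807 by limma), and -0.01 without MST3 replicate 3. The ratio of SLC7A5 to SLC3A2 within a library, which does not depend on library scaling, was 2.69, 2.55 and 2.68 in vector and 2.06, 2.6 and 2.7 in MST3 libraries. Only MST3 replicate 1 stood apart. An exact two-sided permutation test of the 6 log2 ratios gave p = 0.7, where 3 libraries against 3 allow none below 0.1. Among 6 light chains known to pair with SLC3A2, SLC7A5 made up 91.3 to 94.5% of the summed FPKM per library. SLC7A11, the cystine and glutamate exchanger, had 3.23 to 4.02 FPKM, SLC7A8 (LAT2) 2.15 to 2.5 FPKM, and SLC7A7 and SLC7A10 at most 0.19 FPKM.

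SLC7A6, the light chain of low level, had 1.69, 1.77 and 1.96 FPKM in vector and 1.97, 1.84 and 1.79 FPKM in MST3 libraries. Its values ran from 1.69 to 1.97 FPKM over both groups (log2 difference 0.03, 95% interval -0.20 to 0.26, adjusted p = 0.925 by limma). It was the 1 transporter with less spread in MST3 than in vector libraries. Its span shares 17321 bp with SLC7A6OS on the opposite strand, and since the strand setting is not given, reads from the shared part cannot be told apart.

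SLC7A1, the cationic transporter, had 26.3, 24.5 and 24.2 FPKM in vector and 20.5, 23.8 and 27 FPKM in MST3 libraries. MST3 replicate 1 was lowest and MST3 replicate 3 highest of the 6, as for SLC7A5, and the log2 difference was -0.08 (95% interval -0.34 to 0.18, adjusted p = 0.834 by limma). Without MST3 replicate 1 it was 0.02, and without MST3 replicate 3 it was -0.17.

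SLC1A5 had 39.9 times the mean FPKM of SLC1A4, the related exchanger, and MST3 replicate 3 was the highest library for both. SLC1A5 had 46.9, 44.5 and 45.5 FPKM in vector and 41.5, 42 and 58.7 FPKM in MST3 libraries. The vector libraries lay within 2.34 FPKM of one another, a pair of MST3 libraries below them and the third above. The log2 difference was 0.03 (SE 0.14, 95% interval -0.30 to 0.37, adjusted p = 0.948 by limma), at 0.12 without MST3 replicate 1 and -0.13 without MST3 replicate 3. SLC1A4 had 1.12, 1 and 1.11 FPKM in vector and 1, 1.24 and 1.53 FPKM in MST3 libraries, a log2 difference of 0.12 (95% interval -0.20 to 0.44, adjusted p = 0.801 by limma), and the ratio of its means was 1.17. The difference was 0.03 without MST3 replicate 3, 0.19 with 0.1 in place of 1 added to FPKM, and 0.25 by limma voom on the recovered reads. Here MST3 replicates 2 and 3 exceeded all vector libraries and replicate 1 did not.

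SLC6A9, the glycine transporter, had 0.662, 0.611 and 0.566 FPKM in vector and 0.705, 0.569 and 0.826 FPKM in MST3 libraries, with 51 to 73 reads per library. It fell below the 1 FPKM minimum and was not tested in the fit of all genes above it. In the fit with a minimum of 0.1 FPKM its log2 difference was 0.07 (adjusted p = 0.866 by limma). Its span shares 5029 bp with CCDC24 on the opposite strand, which had 4.86 and 4.88 FPKM in the groups.

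**Figure D2:**
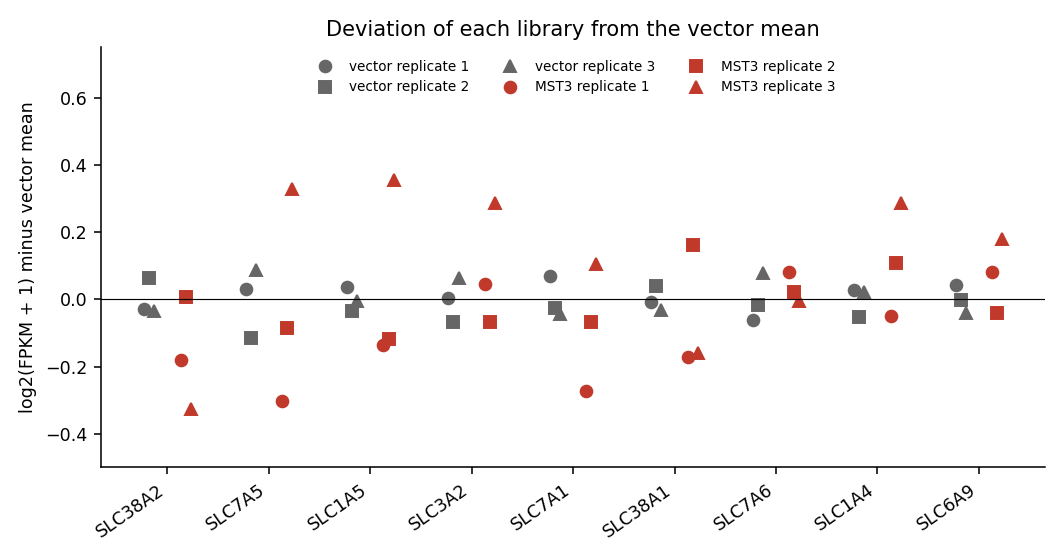
Difference of each library from the mean of the vector libraries, as log2(FPKM + 1), for each transporter (grey for vector, red for MST3, 1 symbol per replicate number). MST3 replicate 3 is highest for SLC7A5, SLC1A5, SLC3A2, SLC7A1, SLC1A4 and SLC6A9 and lowest for SLC38A2, and MST3 replicate 1 is lowest for SLC7A5, SLC1A5, SLC7A1 and SLC38A1.

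In the order of mean levels, SLC38A2 stood above SLC7A5 in all 6 libraries, with the lowest value of the first (151 FPKM) above the highest of the second (130.2 FPKM). SLC7A5 stood clear of SLC1A5, SLC3A2 of SLC7A1, SLC38A1 of SLC7A6, SLC7A6 of SLC1A4, and SLC1A4 of SLC6A9 in the same way. The neighbours SLC1A5 and SLC3A2 had overlapping ranges, although SLC1A5 was higher in 6 of 6 libraries. SLC7A1 and SLC38A1 also overlapped, with SLC7A1 higher in 5 of 6. SLC38A2 ranked 152 and SLC7A5 301 by mean FPKM among all entries. The 9 transporters summed to 426 to 431 FPKM in vector and to 376, 419 and 438 FPKM in MST3 libraries. SLC38A2 made up 43.0 to 46.6% of that sum in vector libraries and 44.5, 45.5 and 34.5% in MST3 replicates 1 to 3.

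The spread between libraries differed among the transporters. The coefficient of variation (SD over mean) of SLC7A5 was 7.21% in vector and 23.0% in MST3 libraries. For SLC1A5 it was 2.58 and 20.7%, and for SLC38A1 2.7 and 14.2%. SLC7A6 varied by 7.64 and 4.81%. The coefficient was larger in the MST3 libraries for 8 of the 9 transporters, and for 77.1% of all tested genes, whose median coefficient was 7.25% in vector and 13.6% in MST3 libraries.

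For the tested transporters other than SLC1A4, the direction in which MST3 replicate 3 differed ran with the base composition of the mRNA, although SLC7A6 hardly differed. For SLC1A4 it ran against it. The longest transcripts of SLC1A5, SLC7A5 and SLC3A2 are GC-rich, at 61.3, 61.1 and 57.4% GC, and these genes lay above the vector mean in that library by 0.36, 0.33 and 0.29 on the log2(FPKM + 1) scale. Those of SLC38A2 and SLC38A1 are AT-rich, at 38.1 and 41.3% GC, and these genes lay at -0.33 and -0.16. SLC1A4, at 46.5% GC, lay at 0.29, where the median of all tested genes of 45.8 to 48.5% GC was -0.07. SLC7A6 (47.0% GC), in the same range of GC content, lay at -0.01. SLC7A1 (52.7% GC) lay at 0.11, where the median of all tested genes of 51.7 to 54.9% GC was 0.07. The medians of all tested genes rose with GC content. Divided into 10 equal bins of GC content, their median in MST3 replicate 3 was -0.20 in the bin of lowest GC content (up to 38.5%) and 0.40 in that of highest (61.8% and above). The medians of the same bins were -0.09 and 0.08 in MST3 replicate 1, 0.05 and -0.06 in MST3 replicate 2, and between -0.09 and 0.06 in the vector libraries.

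With each library's trends with length and GC content removed, MST3 replicate 3 lay at 0.06 for SLC7A5, 0.07 for SLC1A5, 0.13 for SLC3A2, 0.03 for SLC38A1 and -0.12 for SLC38A2. SLC1A4 moved further from the vector mean in that library, from 0.29 to 0.40, on 182 reads. The low values of MST3 replicate 1 did not move in the same way. SLC7A5 was at -0.30 in that library as deposited and at -0.35 with the trends removed, SLC7A1 at -0.27 and -0.21, and SLC1A5 at -0.14 and -0.23, whereas SLC38A1 went from -0.17 to 0.00 and SLC38A2 from -0.18 to -0.05. No transporter passed the test with the trends removed (smallest adjusted p = 0.693, for SLC1A4, by limma).

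**Figure D3:**
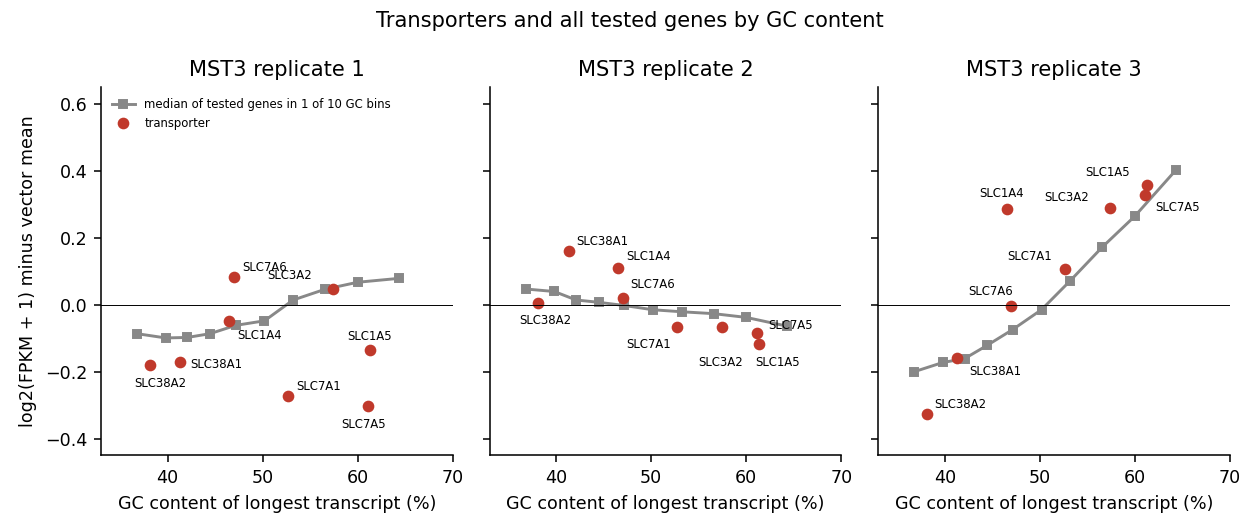
GC content of the longest transcript against the difference from the vector mean, log2(FPKM + 1), in each MST3 library, with the 8 tested transporters in red and the median of tested genes in each of 10 GC bins in grey. In MST3 replicate 3 the bins rise from -0.20 to 0.40 and SLC1A4 lies well above them, while in MST3 replicate 1 SLC7A5 and SLC7A1 lie well below.

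**Figure D4:**
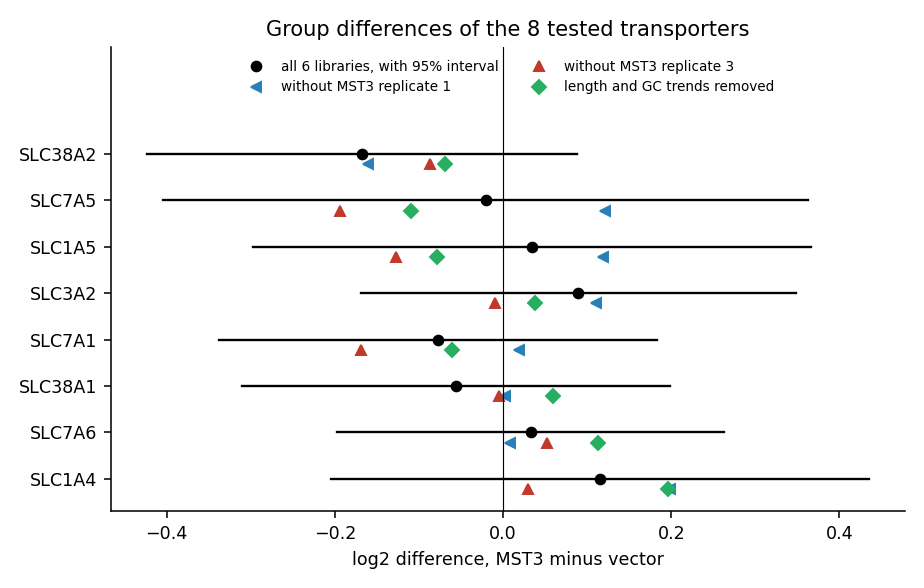
Log2 difference of MST3 minus vector libraries for the 8 tested transporters, with 95% intervals from limma (black), without MST3 replicate 1 (blue), without MST3 replicate 3 (red) and with length and GC trends removed (green). Each interval includes 0, and the values for SLC7A5 run from -0.19 to 0.12 with the library left out.

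The genes whose profile over the 6 libraries was closest to a transporter were named by the smallest root mean square difference of mean-centred log2(FPKM + 1) values over 13028 other genes. For SLC7A5 they were TMEM102 (0.0227) and FOXP4 (0.0273), and for SLC1A5 they were GRK2 (0.017) and KRT19 (0.0171), all of them highest in MST3 replicate 3. For SLC38A2 they were ZNF292 (0.0145) and GPAT3 (0.021), both lowest in MST3 replicate 3. Among the 8 tested transporters, SLC38A2 was closest to SLC38A1 (0.0768) and SLC7A5 to SLC1A5 (0.082), while SLC7A5 and SLC38A2 were 0.2796 apart.

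The starts of the transporter genes were searched for a pair of short motifs, the amino acid response element core TGATGNAA (N is any base), which ATF4 and its C/EBP partners bind, and the E-box CACGTG, which MYC and its partner MAX bind. RefSeq windows of 250 bases before to 50 after a start on GRCh38.p14 were found for all 9 genes, 15 in all, and both strands were read. TGATGNAA was in 5 of these 15 windows, 1 each of 5 genes, and in 3.62% of all 35116 windows. SLC3A2 was among those genes, but SLC7A5 and SLC38A2, also named above as targets of ATF4, were not. CACGTG was in 2 of 15 and in 7.26% of all. Neither overlaps the other in these windows, and a match describes letters and not a site in use. The matches are shown because the 5 genes that hold TGATGNAA near a start include the exchanger SLC1A4 and the heavy chain SLC3A2, and the E-box genes are SLC7A5 and SLC1A5. Each is written 5′ to 3′ on the gene's strand with the motif in capitals, positions are counted from the first transcribed base as 1, and TTGCATCA and TTACATCA are TGATGNAA read on the opposite strand.
SLC1A4 (chr2:64989381-64989410, plus strand, motif from base -7): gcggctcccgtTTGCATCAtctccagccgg
SLC3A2 (chr11:62881719-62881748, plus strand, motif from base 38): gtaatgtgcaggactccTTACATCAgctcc
SLC38A1 (chr12:46266502-46266531, minus strand, motif from base -4): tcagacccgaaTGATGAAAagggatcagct
SLC7A1 (chr13:29595663-29595692, minus strand, motif from base 8): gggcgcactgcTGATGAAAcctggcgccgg
SLC1A5 (chr19:46784893-46784922, minus strand, motif from base -97): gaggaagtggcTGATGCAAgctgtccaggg
SLC1A5 (chr19:46787326-46787355, minus strand, motif from base -50): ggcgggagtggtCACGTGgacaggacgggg
SLC7A5 (chr16:87869508-87869757, minus strand, motif from base -130, the 250 bases before the start): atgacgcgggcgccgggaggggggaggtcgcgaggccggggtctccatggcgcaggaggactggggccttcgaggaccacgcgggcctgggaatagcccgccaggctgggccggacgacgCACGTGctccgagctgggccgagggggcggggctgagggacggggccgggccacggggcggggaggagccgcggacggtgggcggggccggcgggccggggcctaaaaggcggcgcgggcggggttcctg
The carriers of TGATGNAA did not share a direction, with log2 differences of 0.12 for SLC1A4, 0.09 for SLC3A2, 0.03 for SLC1A5, -0.06 for SLC38A1 and -0.08 for SLC7A1, none of which passed the test. SLC1A5 has 3 RefSeq starts among the 15, and which of them HCT116 cells use was not measured. The same holds for the starts of the other genes. The matches of SLC1A4, SLC3A2, SLC38A1 and SLC1A5 lie inside the gene's span, downstream of its outermost start. That of SLC3A2 is at 62881719, in a span that begins at 62856102.

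Other amino acid transporters of the plasma membrane were lower for 9 and higher for 4 of the 13 tested genes of a list of 24, with a median log2 difference of -0.05, and 0 passed by limma, with 0 at an unadjusted p under 0.05. The most abundant was SLC6A6, the taurine transporter, with 26.8, 25 and 27.7 FPKM in vector and 25.6, 26.3 and 24.7 FPKM in MST3 libraries. SLC36A4 (3.8 ± 0.142 and 3.28 ± 0.469 FPKM, SD, n = 3) and SLC36A1 (2.84 ± 0.0867 and 2.6 ± 0.0525), both of the PAT family of amino acid carriers, were the 2 of the list with all MST3 libraries below all vector libraries, where 6.7% of all tested genes had that order. The log2 difference of SLC36A4 was -0.17, and it was -0.08 without MST3 replicate 3 and -0.08 with length and GC trends removed. That of SLC36A1 was -0.09, and -0.06 with the trends removed. SLC1A3, a glutamate transporter, had 2.14 and 1.81 FPKM, a log2 difference of -0.17 that was -0.29 without MST3 replicate 1, -0.10 without MST3 replicate 3 and -0.08 with the trends removed. The list's median was -0.0051 without MST3 replicate 1 and -0.01 with the trends removed. The other 11 genes had means of at most 0.184 FPKM.

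Genes of the amino acid response, driven by ATF4, split into 13 higher and 11 lower of 24 tested (28 listed), with a median of 0.03, and 0 passed by limma. An unadjusted p under 0.05 was reached by 2 higher and 1 lower gene, and the groups did not overlap for 1 higher and 3 lower genes. The median turned to -0.02 without MST3 replicate 3 and with length and GC trends removed. ATF4 itself had a log2 difference of 0.03. PYCR1, an enzyme of proline synthesis, had 50.7, 44.2 and 53.5 FPKM in vector and 65.6, 55.8 and 74 FPKM in MST3 libraries, with every MST3 value above every vector value (log2 difference 0.39, SE 0.13, adjusted p = 0.719 by limma, where 5.19% of all tested genes had groups in that order). Its difference was 0.26 with length and GC trends removed, 0.38 without MST3 replicate 1 and 0.29 without MST3 replicate 3. EIF4EBP1, which encodes a repressor of translation that mTORC1 phosphorylates, had 58.1 ± 9.91 and 74.4 ± 9.16 FPKM (SD, n = 3), and its groups overlapped. Its log2 difference was 0.36, and 0.16 with length and GC trends removed. ATF3, a stress transcription factor, had 12.2 ± 0.288 and 10.7 ± 0.173 FPKM, with the groups apart (log2 difference -0.17, adjusted p = 0.719 by limma, where 6.7% of all tested genes had groups in that order). DDIT4, the most abundant of the list, had 372 and 399.7 FPKM, a log2 difference of 0.09 that turned to -0.03 without MST3 replicate 3 and to -0.02 with the trends removed. The list's median in MST3 replicate 3 was 0.20, and that of the 8 tested transporters was 0.20, beside -0.01 for all tested genes. The medians of the list and of the transporters were also equal in vector replicate 1, at 0.0159. The list may hold some of the same transporters, so the equal medians are not counted as separate results. The value for all tested genes is not matched for GC content. The 8 tested transporters had 38.1 to 61.3% GC. In that library the bin medians of all tested genes ran from -0.20 at lowest to 0.40 at highest GC content. At 48.5 to 51.7% GC the median was -0.01. Neither set was compared with genes matched for GC content.

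Amino acid sensing and mTORC1 genes had 16 higher and 21 lower of 37 tested (39 listed), a median of -0.03 and 0 passing by limma, with 2 higher and 1 lower at an unadjusted p under 0.05. The median was 0.01 without MST3 replicate 1 and 0.0018 with length and GC trends removed. In this list 4 genes lay wholly above and 5 wholly below the vector libraries, orders that 5.19% and 6.7% of all tested genes had. LAMTOR2, a subunit of the Ragulator complex that holds mTORC1 on the lysosome, had 9.26, 10.2 and 9.72 FPKM in vector and 18.5, 12 and 14.4 FPKM in MST3 libraries, with the groups apart. Its log2 difference was 0.55 (SE 0.15, adjusted p = 0.719 by limma), and 0.40 without MST3 replicate 1. LAMTOR4 of the same complex had 12.4 ± 2.5 and 17.6 ± 3.29 FPKM (SD, n = 3), also apart. Its log2 difference was 0.48 (SE 0.17, adjusted p = 0.719 by limma). The difference of LAMTOR4 was 0.34 without MST3 replicate 1, 0.52 without MST3 replicate 3 and 0.35 with length and GC trends removed. RRAGC, a Rag GTPase that the complex anchors, had 3.13, 2.72 and 3.25 FPKM in vector and 1.91, 2.52 and 2.02 FPKM in MST3 libraries, a log2 difference of -0.36 (SE 0.11, adjusted p = 0.719 by limma) and -0.28 with length and GC trends removed. RRAGA, the most abundant, had 40 and 38.3 FPKM, a log2 difference of -0.06 that turned to 0.01 without MST3 replicate 1.

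Enzymes of glutamine, glutamate and branched-chain amino acids were lower for 15 and higher for 4 of 19 tested genes (23 listed), with a median of -0.09 and 0 passing by limma, and 0 at an unadjusted p under 0.05. GLUD1, glutamate dehydrogenase, had 61.3 ± 3.27 and 53.1 ± 7.68 FPKM, and GOT2, the mitochondrial aspartate transaminase, 48.5 ± 3.36 and 41.7 ± 7.37 FPKM (SD, n = 3). The log2 difference of GOT2 was -0.23, and -0.07 without MST3 replicate 1, and that of GLUD1 was -0.21, and -0.13 without that library. The list's median was -0.17, 0.01 and -0.13 in MST3 replicates 1 to 3. It was -0.04 without MST3 replicate 1 and -0.02 with length and GC trends removed, beside a median of 0.01 for all genes in that fit.

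SLC7A5P1, an unprocessed pseudogene named as a copy of SLC7A5, had 1.59, 1.3 and 2.67 FPKM in vector and 2.8, 2.47 and 3.26 FPKM in MST3 libraries, from 12 to 30 reads. Reads shared with SLC7A5 could be counted on either, so its value is uncertain, and at most 30 reads per library stand beside a mean of 8323 or more on SLC7A5. RNA was taken from whole cultures, so fewer cells with a transcript and less of it per cell cannot be told apart.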

How the data were processed

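The authors deposited 1 table of FPKM values for 6 libraries. HISAT2 is the tool named per the submitters' processing notes. No source used here gives its version, the counter, the strand setting or the annotation. All 58735 entries with an Ensembl identifier have the coordinates of GENCODE 29 on GRCh38. FPKM times gene length was a whole multiple of 1 step per library (100.0% of values, tolerance 0.01), which gave the reads behind each value. The test was limma 3.58.1 (R 4.3.3), two-sided, on log2(FPKM + 1) values, with a variance trend over intensity in eBayes. It took in the 13036 genes whose mean over the 6 libraries reached 1 FPKM, with Benjamini-Hochberg adjustment over them and a threshold of 0.05. The fit was also run on simulated data with the same dispersion in both groups and no length or GC trend. These libraries differ in both respects, so that run does not show how the fit performs on them.

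The transporters, gene lists and alternatives were chosen with earlier results of these data known. The 9 transporters and STK24 were named in any case, and from each other list up to 3 genes with the smallest p and the most abundant one, of which 1 is not reported here. SLC7A5, SLC1A5 and SLC38A2 also had their 2 closest profiles named. SLC7A5P1, the light chains other than SLC7A5 and SLC7A6, and the genes overlapping a transporter were chosen after their values were seen. GC content was that of the longest GENCODE 29 transcript (99.2% of tested genes). Alternatives covered pseudocount, filter, scaling, variance trend, replicate block, voom on recovered reads, length trend and each library left out. Removal of length and GC trends, and a fit without MST3 replicates 1 and 3, were added after seeing the data. Tables were made with pandas 2.3.3 and numpy 2.4.6 under Python 3.11.15, and plots with matplotlib 3.10.9.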

Additional observations from a re-analysis of the deposited data

How the results depend on the processing

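Across 17 alternatives to the fit of all genes, 1 gene (STK24) passed and 0 transporters passed. The median of the 9 transporters ranged from -0.0097 to 0.0699 with each library left out in turn, and was -0.0394 without MST3 replicates 1 and 3, which leaves MST3 replicate 2 as the only library of its group, assumed to vary like the vector libraries. Of 148 values of single transporters under an alternative, 131 kept their sign and 17 reversed. The 131 include values under another filter, without a variance trend and with a replicate block. Those alternatives cannot change a log2 difference, so their signs were fixed in advance. None of the reversed values passed the test in either fit, and that of SLC6A9 was not tested. SLC7A5 reversed to 0.0016 with median-of-ratios factors and 0.0115 by voom, and ranged from -0.19 to 0.12 with single libraries left out. SLC38A1 reversed to 0.0078 with the length trend removed, and SLC38A1 and SLC1A5 to 0.0599 and -0.0787 with length and GC trends removed. Without MST3 replicates 1 and 3 the values, which are those of MST3 replicate 2 alone, were -0.0666 for SLC3A2, -0.118 for SLC1A5, 0.162 for SLC38A1, 0.0057 for SLC38A2 and -0.0394 for SLC6A9. With single libraries left out, SLC1A5 ranged from -0.13 to 0.12, SLC3A2 from -0.0097 to 0.168, SLC38A1 from -0.165 to 0.0017, SLC38A2 from -0.254 to -0.0875 and SLC7A1 from -0.169 to 0.0195. The log2 ratio of SLC7A5 to SLC3A2, -0.11 with all libraries, ranged from -0.19 to 0.0088 and reversed only without MST3 replicate 1. The causes of these reversals were not tested. The smallest unadjusted p of a transporter under any alternative was 0.0382 (SLC38A2 without MST3 replicate 2, log2 difference -0.25, adjusted p = 0.239 by limma). The 5.38% of all tested genes with an unadjusted p under 0.05 belongs to the fit of all 6 libraries. That share was not counted in the fit without MST3 replicate 2. SLC6A9 had no value under the rescaled, voom or trend-removed fits, where it was below the filter, and the median of 9 was not formed there.

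The replicate number as a block changed no call. The median of the 9 transporters stayed at 0.03, as it must. A block cannot alter a log2 difference when both groups hold every replicate number. The labels do not state that equal numbers pair libraries, so the numbers were not treated as pairs. The deviations of same-numbered libraries from their group means correlated at 0.016, 0.226 and 0.035 across genes. Those of libraries with different numbers correlated at -0.148 to 0.122. With 3 libraries per group these values cannot decide whether the numbers pair libraries. Depth limits SLC6A9, SLC1A4 and SLC7A6, whose counting error alone was 6.48 to 13.5% per library.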
